A study of Mus musculus with 2 samples.

Results

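Red cell barcodes with few genes were examined in single-cell RNA sequencing (scRNA-seq) libraries of mouse femurs. The barcodes were selected on the number of genes and on haemoglobin. A barcode was taken when fewer than 200 genes had a unique molecular identifier (UMI, a tag that marks 1 captured mRNA molecule) and when the 4 adult haemoglobin genes *Hba-a1*, *Hba-a2*, *Hbb-bs* and *Hbb-bt* together held 50% or more of its UMIs. The rule found 1649 of the 10638 deposited barcodes. In the untreated library they were 1239 of 6076, or 20.4% (exact Clopper-Pearson 95% interval 19.4 to 21.4). In the calcitriol library they were 410 of 4562, or 8.99% (8.17 to 9.85). Such barcodes had been left out by the authors, whose filter removed every barcode under 200 genes. All intervals given here cover counting error only.

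The study asked which osteocytes express *Fgf23* when mice receive calcitriol (1,25-dihydroxyvitamin D3, the active form of vitamin D). Both groups were male C57BL/6J mice, 7 weeks old. The calcitriol group had received 2.5 μg/kg by intravenous injection daily for 3 days and was killed 24 h after the last injection, and the other group was untreated. The femurs of the 6 mice of a group were pooled into 1 library. The ends of the bones were cut off, the marrow was spun out, the bone was digested with collagenase and EGTA, and cells carrying the leukocyte antigen CD45 were removed with magnetic beads. With 1 library per group there is no replicate check, so no p-value is given and a difference between the libraries cannot be told apart from a difference between the preparations.

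Red cells are made in the marrow from nucleated erythroblasts. The erythroblast fills itself with haemoglobin, expels its nucleus and becomes a reticulocyte, which cannot transcribe new mRNA. The reticulocyte then removes its mitochondria, ribosomes and remaining mRNA by autophagy and by the ubiquitin system until a mature red cell is left. Transcripts found in a cell without a nucleus are therefore those made earlier and not yet degraded. Haemoglobin itself is built from pairs of alpha and beta chains, each chain holding a haem made from iron and protoporphyrin.

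**Figure D1:**
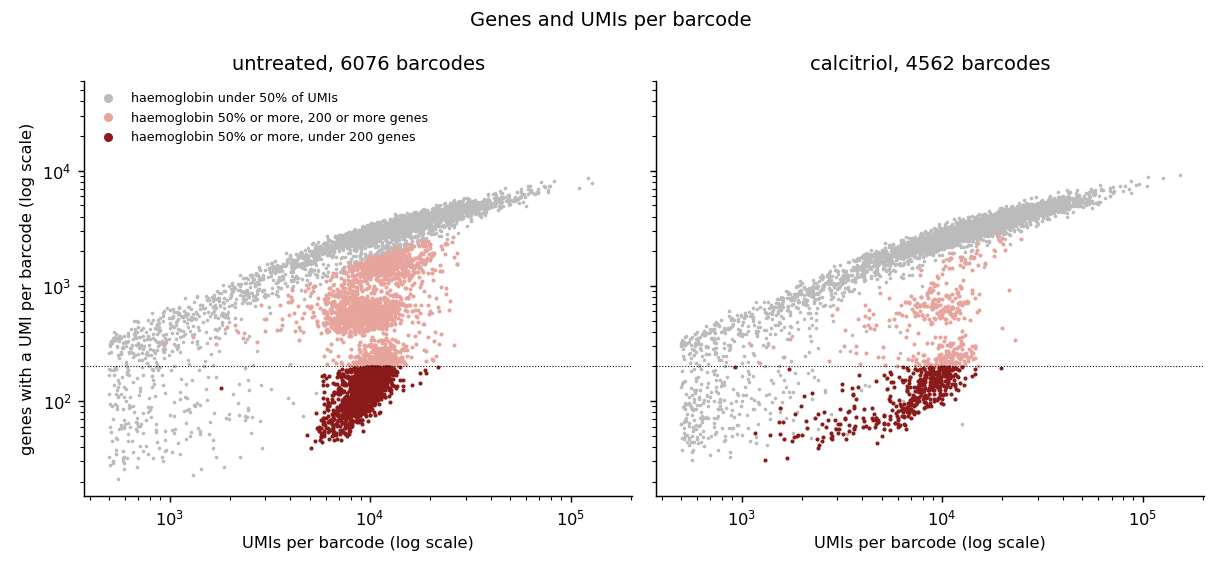
Each point is a deposited barcode, with its UMIs on the horizontal axis and its genes with a UMI on the vertical axis (both log scales), for the untreated and the calcitriol library. The 1239 and 410 dark points below the dotted line at 200 genes are the barcodes described, and they run without a gap into barcodes with more genes.

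These barcodes were poor in genes but not in UMIs. The median was 9209 UMIs (range 1803 to 21880) in the untreated library and 7689.5 UMIs (931 to 19705) in the calcitriol library, with a median of 124 genes in each. They held 38.1% and 45.4% of all haemoglobin UMIs of their libraries. Haemoglobin, which chose them, made up 96.2% of their UMIs in the untreated and 95.6% in the calcitriol library, and 434090 and 133465 UMIs were left beside it. A single barcode had a median of 334 such UMIs in the untreated and 305 in the calcitriol library. Low depth was rare in the untreated library, where 1 barcode was under 2000 UMIs, against 18 in the calcitriol library. Of the 1239 untreated barcodes 1237 had 5000 or more UMIs, and of the 410 calcitriol barcodes 323 did. The others form a tail of shallow red cell barcodes, seen on the left of the dark points in the plot of genes and UMIs, that stands almost entirely in the calcitriol library.

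Depth was also set equal, as a description, since the rule itself fixes few genes and much haemoglobin. With each barcode thinned to 500 UMIs, none being shallower, the median was 18 genes in the untreated and 20.5 in the calcitriol library. Barcodes that also held 50% or more haemoglobin but had from 200 to under 1000 genes (called intermediate red cell barcodes here) kept 72 and 63 genes at that depth. Of the 500 UMIs a median of 17 and 20 lay outside haemoglobin under 200 genes, against 89 and 75 in intermediate barcodes. Other barcodes under 200 genes, whose haemoglobin share was below 50%, were 204 and 232 in number and had medians of 801.5 and 749 UMIs, which sets them apart from the red cell barcodes in the plot of genes and UMIs. The libraries shared 8 barcode sequences, of which 1 was a red cell barcode under 200 genes in both.

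The limit of 200 genes did not fall at a break in the data. The untreated library held 68 red cell barcodes in the 10 gene numbers just below the limit and 73 in the 10 just above it, with haemoglobin at 94.3% and 93.9% of their UMIs. The calcitriol library held 34 and 28, with haemoglobin at 93.8% and 93.5%. At the other limit, 1 barcode of the untreated library lay just inside at a haemoglobin share of 51.5% and 1 just outside at 42.2%, while the calcitriol library had none from 50% to under 60% and 1 at 45.2%. The inside barcode took 74.6% of its other UMIs from the ribosomal RNA locus.

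The label of these barcodes was checked with red cell genes that the rule did not use. *Alas2*, which starts haem synthesis in red cells, had a UMI in 99.9% of the barcodes of the untreated library and in 98.3% of those of the calcitriol library. In stromal barcodes (1000 or more genes, haemoglobin under 10%, at least 50 UMIs of 8 collagen and matrix genes) the share was 4.60% and 1.31%, although these barcodes were deeper, with medians of 13423 and 14238.5 UMIs. *Bpgm*, which makes 2,3-bisphosphoglycerate, was found in 97.0% and 89.3% of the barcodes, against 20.7% and 19.7% of stromal barcodes. *Slc4a1*, which encodes the anion exchanger band 3, was found in 24.8% and 19.3%, against 3.30% and 1.05% of stromal barcodes.

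A few genes carried most of what was left beside haemoglobin. Levels are given below as UMIs per 1000000 UMIs outside the 4 haemoglobin genes (CPM beside haemoglobin) or, where named so, per 1000000 of all UMIs (CPM of all UMIs). The 10 highest genes held 37.3% of these UMIs in the untreated and 38.0% in the calcitriol library, and the 25 highest held 54.7% and 54.0%. In intermediate red cell barcodes the 25 highest held 33.0% in the untreated library, and in those with 1000 or more genes they held 22.6%. Of the 25 highest genes of the untreated library, 23 were also among the 25 highest of the calcitriol library.

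Haem synthesis and iron handling were among the highest transcripts. *Alas2* stood at 51012 CPM beside haemoglobin in the untreated library (median 17 UMIs per barcode, highest 51) and at 47218 in the calcitriol library (median 15, highest 53). *Ftl1*, the light chain of the iron store ferritin, stood at 41044 and 35148. *Fth1*, the ferritin heavy chain, stood at 16672 and 12722. *Slc25a37*, mitoferrin 1, which brings iron into the mitochondrion, stood at 8687 and 9216, and *Slc25a39*, a mitochondrial carrier of glutathione, at 9397 and 7410.2. The whole list of 16 haem synthesis genes held 7.47% and 6.71% of the UMIs beside haemoglobin, with *Alas2* its most abundant gene.

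The mRNAs of *Alas2*, *Ftl1* and *Fth1* carry an iron-responsive element, a stem-loop in the 5′ UTR to which iron regulatory proteins bind and so slow translation when iron is short. The loop motif, a C, any 5 bases, CAGTG and any base, was searched on the sense strand in the annotated 5′ UTRs of GENCODE vM21. It was found in 5 of the 23 highest genes with an annotated 5′ UTR (21.7%) and in 2559 of 20898 genes in all (12.2%), the other matches being *Bpgm* and *Epb41*. Windows of 30 bases are shown for the 3 iron genes because these were among the highest transcripts beside haemoglobin. They lie at chrX:150547455-150547484 on the plus strand, chr7:45459781-45459810 on the minus strand and chr19:9982729-9982758 on the plus strand of GRCm38, in 5′ UTR exons. Capitals mark the 6 loop bases.
Alas2: tctttggttcgtcctCAGTGCagggcaaca
Ftl1: tgtgtcttgcttcaaCAGTGTttgaacgga
Fth1: ggtttcctgcttcaaCAGTGCttgaacgga

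Among the lists described here, ubiquitin and the clearance of organelles held the most UMIs beside haemoglobin. Its 28 genes held 16.1% of the UMIs beside haemoglobin in the untreated and 15.0% in the calcitriol library, against 8.22% and 10.1% in intermediate red cell barcodes. On all UMIs the direction turned, with the list at 6076 CPM against 13249.9 in the untreated and 6584 against 15407 in the calcitriol library. *Ubb*, a polyubiquitin gene, stood at 45256 and 48005 CPM beside haemoglobin, and its UMIs were uneven, with quartiles of 3 and 25 UMIs per barcode in the untreated and 2 and 25 in the calcitriol library. *Mkrn1*, a ubiquitin ligase of the makorin family, stood at 36432 and 25939. *Ube2l6*, a conjugating enzyme, stood at 16764 and 16424. Genes that act in the removal of mitochondria were also high. *Bnip3l*, the NIX receptor that marks mitochondria for autophagy in reticulocytes, stood at 17273 and 15008, and *Gabarapl2* and *Map1lc3b*, which encode proteins of the autophagosome membrane, stood at 11263 and 9253 and at 8309 and 8646.

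Other high transcripts belong to oxygen release, protection from oxidation and the red cell skeleton. *Bpgm*, whose product lowers the oxygen affinity of haemoglobin, stood at 44638 and 38752 CPM beside haemoglobin. *Gpx1*, glutathione peroxidase, stood at 34776 and 39201, and *Prdx2*, peroxiredoxin 2, at 11926 and 11029. *Epb41*, the skeleton protein 4.1, stood at 8429 and 9141. *Oaz1*, which limits polyamine synthesis, stood at 26259.5 and 21848, and *Tent5c*, a poly(A) polymerase, at 14402 and 13067. Other genes among the 25 were *Tpt1*, *Sec61g*, *Isg20*, *H3f3a*, *Eif1*, *mt-Co1* and *Gm42418*, and they lay between 6324 and 71367.

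Translation was represented by more than its mRNAs. *Gm42418*, a gene model at chr17:39846958-39848788 (plus strand, GRCm38) that overlaps ribosomal RNA sequence and the antisense model *AY036118*, stood at 48870.0 CPM beside haemoglobin in the untreated and 71367 in the calcitriol library. It was in every barcode, with medians of 16 and 18 UMIs, but single barcodes reached 646 and 1025. The 83 ribosomal protein genes of the files held 5.37% and 6.47% of the UMIs beside haemoglobin, led by *Rpl41* at 5761 and 7051 CPM. The 13 genes of the mitochondrial genome held 3.03% and 2.15%, led by *mt-Co1*, a subunit of cytochrome oxidase, at 10168 and 8189.

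**Figure D2:**
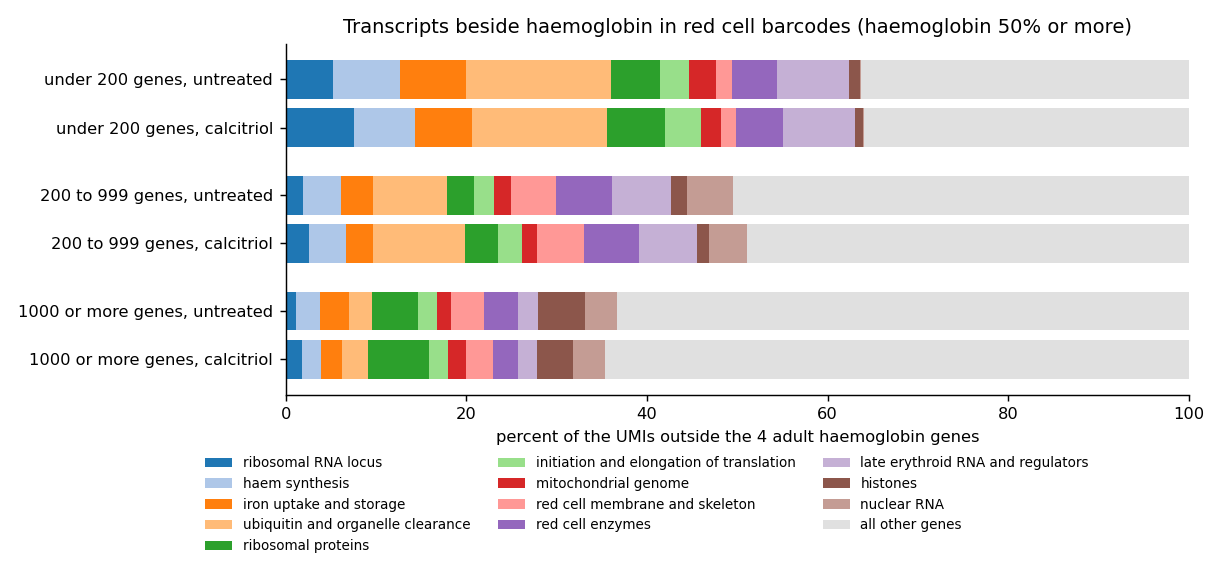
Stacked horizontal bars give the percent of UMIs outside the 4 adult haemoglobin genes that each gene list held, for barcodes with 50% or more haemoglobin and under 200, 200 to under 1000, and 1000 or more genes, in each library. Ubiquitin and clearance genes held 16.1% and 15.0% under 200 genes, and nuclear RNA, which held 5.06% and 4.18% in intermediate barcodes, is too small under 200 genes to be seen.

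Intermediate red cell barcodes were the nearest set for comparison, 1341 in the untreated and 327 in the calcitriol library. The rule splits on the number of genes, so this comparison is a description. Of the 982 genes with at least 50 UMIs over both sets in each library, 86 (8.76%) were 2-fold or more higher under 200 genes in both libraries in CPM beside haemoglobin, and 512 (52.1%) were 2-fold or more lower. The scale decides the split, because haemoglobin took more of the UMIs under 200 genes. As shares of all UMIs, no gene was 2-fold higher in both libraries, 841 were 2-fold lower and 94 lay within 2-fold in both. With the haemoglobin limit at 80% in both sets, 48 of 540 genes were higher and 176 lower beside haemoglobin.

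The share of all UMIs differed little for some of the highest genes, such as *Ftl1* and *Alas2*, and was over 2-fold lower under 200 genes for others, such as *Ubb* and *Gpx1*. *Ftl1* had 14.4 UMIs per barcode under 200 genes and 15.6 in intermediate barcodes in the untreated library, and 11.4 and 11.7 in the calcitriol library. *Alas2* had 17.9 and 21.1 in the untreated and 15.4 and 21.3 in the calcitriol library. As shares of all UMIs their log2 ratios were 0.00 and 0.37 for *Ftl1* and -0.12 and -0.07 for *Alas2*, against -1.18 and -1.49 for *Ubb* and -1.98 and -1.70 for *Gpx1*. The 10 genes with the largest ratios were *Serf2*, *Hbq1a*, *Rpl41*, *Fam220a* (identifier ENSMUSG00000118332, 1 of the identifiers with this symbol), *Ftl1*, *Lars2*, *Gm10076*, *Fundc2*, *Cytl1* and *Rexo2*. *Hbq1a*, theta globin, had 374 UMIs under 200 genes and 368 in intermediate barcodes in the untreated library, and 102 and 97 in the calcitriol library. In *Lars2*, the mitochondrial leucyl-tRNA synthetase, and *Gm10076* and *Rpl41*, reads can come from ribosomal RNA or from near-identical copies, so that their counts are uncertain.

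Other erythroid transcripts were almost absent. *Xpo7*, a nuclear export receptor of late erythroblasts, had 13.5 UMIs per intermediate barcode in the untreated library and 0.0476 under 200 genes, and 11.1 and 0.00732 in the calcitriol library. *Slfn14*, a ribonuclease of the Schlafen family, had 5.98 and 0.0161 in the untreated and 4.92 and 0.00732 in the calcitriol library. The other genes at this end were *Dyrk3*, a kinase of late erythroblasts, *Ermap*, which carries a blood group antigen, *Slc1a5*, an amino acid transporter, *Lpin2*, *Tmem131l*, *Tcp11l2* and *Fryl*. Each of these 7 had 8 UMIs or fewer under 200 genes in either library. As shares of all UMIs, 355 genes were 16-fold or more lower in both libraries.

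**Figure D3:**
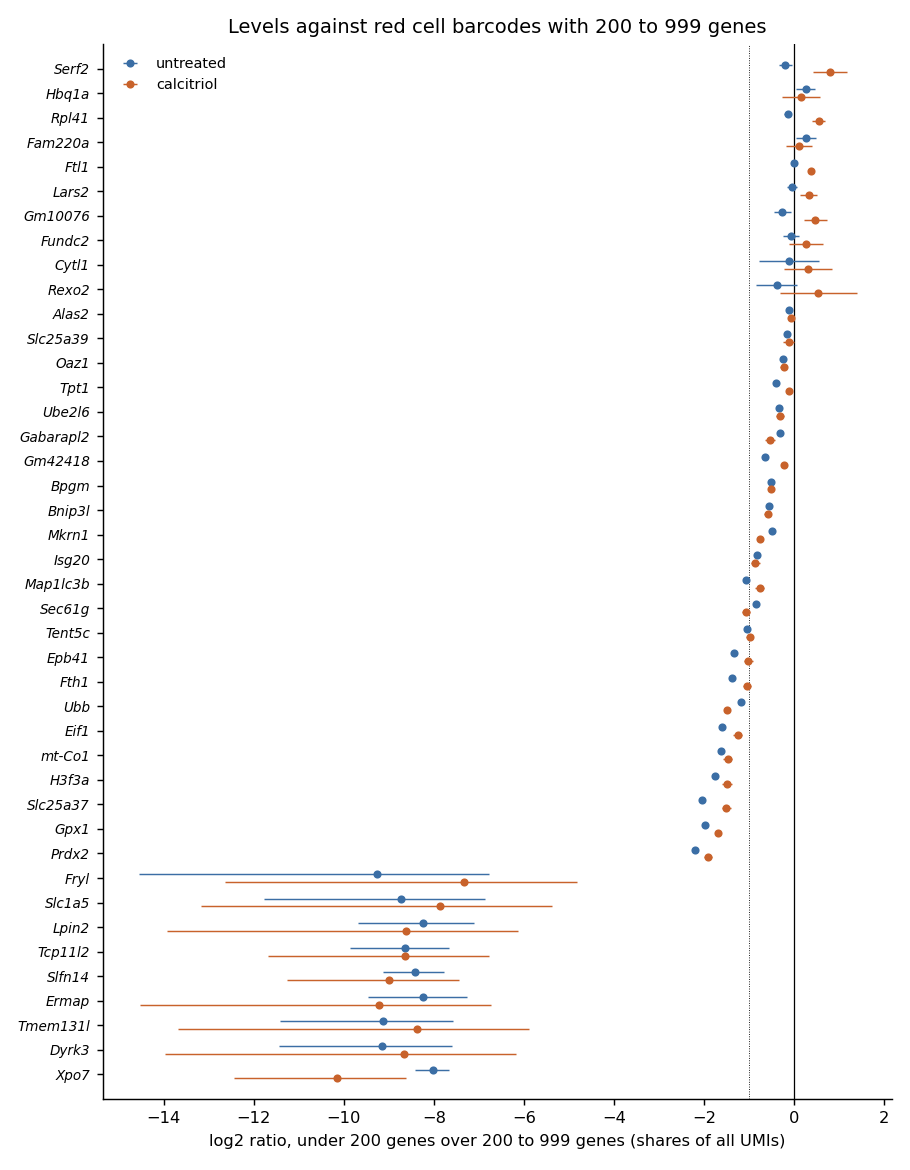
Points give the log2 ratio of the share of all UMIs under 200 genes to that in intermediate barcodes for the genes named among the 25 highest and at each end of the ranking, with exact 95% counting intervals, per library. The dotted line marks 2-fold lower. *Alas2* lies near the line of no difference (-0.12 and -0.07) and *Xpo7* at -8.02 and -10.16.

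The gene lists are set beside the shares of all 982 genes, of which 52.1% were lower and 8.76% higher beside haemoglobin. These counts follow from the rule and are given as a description. Of 23 genes of the red cell membrane and skeleton tested, 18 were 2-fold or more lower beside haemoglobin in both libraries and none was higher, with a median log2 ratio of -3.35 in the untreated and -2.97 in the calcitriol library, beside medians of -1.44 and -1.35 over all 982 genes. *Slc4a1* had 0.383 UMIs per barcode against 12.3 in the untreated library and 0.332 against 11.9 in the calcitriol library. *Tmcc2*, a coiled-coil membrane protein, had 0.0573 against 18.9 and 0.061 against 20.3. All 7 erythroid transcription factors tested were lower in both libraries (medians -3.10 and -2.86). Among 15 haem synthesis genes 9 were lower and 2 higher (-3.08 and -3.32), among 27 ubiquitin and clearance genes 8 were lower and 6 higher (0.12 and 0.14), and among 79 ribosomal protein genes 3 were lower and 15 higher (0.51 and 0.50). Among 7 iron genes 1 was lower and 3 higher (0.72 and 0.74). Within that list *Tfrc*, the transferrin receptor through which erythroblasts take up iron, had 12 and 8 UMIs in all under 200 genes, against 3790 and 794 in intermediate barcodes.

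Coding genes that were higher beside haemoglobin had shorter transcripts than those that were lower. The longest annotated protein-coding transcript had a median of 1586.5 bases for 82 of the 86 higher genes, 3378 bases for 497 of the 512 lower genes and 2619 bases for 955 of all 982 genes. The interquartile ranges, 945.75 to 2465.5 and 2074 to 5213 bases, overlapped. The lengths are those of GENCODE vM21 and not of the isoforms present, and the part of length in the ratios was not tested.

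Nuclear RNA stepped up above the limit of 200 genes. *Malat1*, a long non-coding RNA that stays in the nucleus, was at 25 CPM of all UMIs at 50 to under 100 genes and at 36 at 200 to under 300 genes in the untreated library, then at 2697 at 300 to under 400 genes and 11667 at 400 to under 600 genes. In the calcitriol library it was at 80, 74, 271 and 12194 at the same numbers of genes. Barcodes with 200 to under 300 genes, 331 and 136 in number, thus resembled those below the limit in this respect. Against intermediate barcodes with 400 or more genes only, a choice made after this was seen, 105 genes were 2-fold higher and 492 lower beside haemoglobin in both libraries, of 898 tested. *Malat1* had a UMI in 19.5% of the barcodes under 200 genes in the untreated library and in 32.0% in the calcitriol library, against 99.5% and 99.9% of stromal barcodes.

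Among the barcodes under 200 genes, transcripts differed in how they went with the number of genes. *Alas2* and *Ftl1* kept their share of all UMIs from 50 genes upward, at 1832 to 1984 and 1515 to 1588 CPM of all UMIs in the untreated library and at 1829 to 2222 and 1467 to 1688 in the calcitriol library. *Mkrn1* was at 783 CPM of all UMIs at 50 to under 100 genes, 1407 at 100 to under 150 and 1802 at 150 to under 200 in the untreated library, and at 420, 1143 and 1578 in the calcitriol library. In CPM, *Ubb* and *Gpx1* differed more. *Ubb* was at 517, 1455 and 2897 in the untreated and 867, 1646 and 3271 in the calcitriol library, and *Gpx1* at 284, 1094 and 2341 and at 210, 1275 and 3024. *Car2*, carbonic anhydrase 2, which hydrates carbon dioxide, was at 22, 118 and 558 and at 16, 124 and 525. Of *Mkrn1*, *Ubb*, *Gpx1* and *Car2*, the span of *Car2* was the widest as a fold and the narrowest in CPM. Depth went with the number of genes too, with median UMIs of 7997, 9473 and 10196 in the untreated and 5470, 8369 and 9365 in the calcitriol library, and its part was not tested.

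The direction for gene groups depended on the scale. Beside haemoglobin, ubiquitin and clearance genes held 13.8% of the UMIs at 50 to under 100 genes and 16.7% at 150 to under 200 genes in the untreated library, and 10.7% and 16.4% in the calcitriol library. Ribosomal proteins went the other way, from 7.23% to 4.38% and from 10.0% to 4.91%, as did haem synthesis genes, from 10.1% to 6.24% and from 8.41% to 6.05%. As CPM of all UMIs, of which haemoglobin took less at higher gene numbers, haem synthesis genes went up instead, from 2334 to 3230.0 in the untreated and from 2334 to 3438 in the calcitriol library, and ribosomal proteins from 1669.5 to 2265 in the untreated library, while in the calcitriol library they were level at 2785 and 2792. The barcodes under 50 genes, 9 in the untreated and 14 in the calcitriol library, are too few for a statement on either group.

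**Figure D4:**
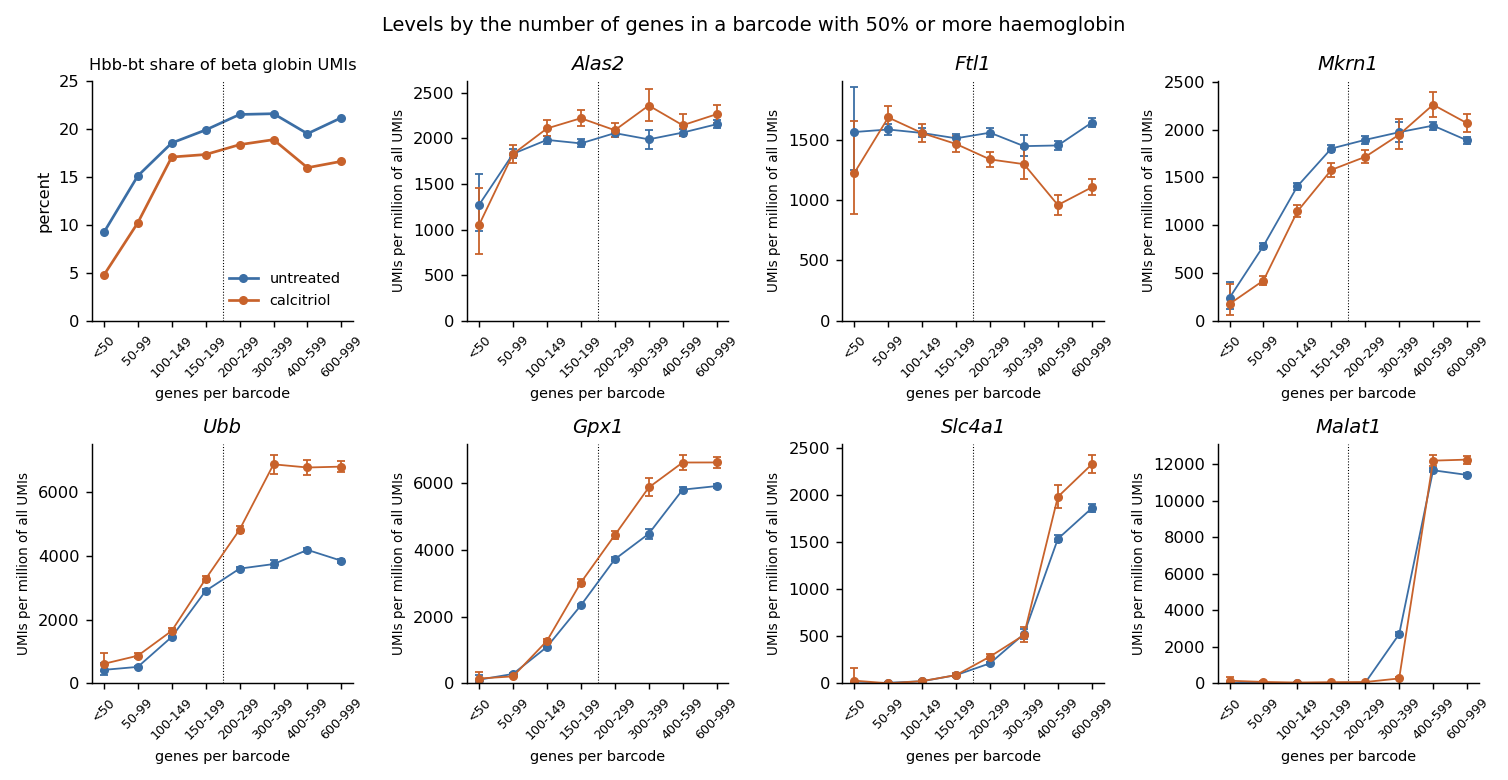
Panels give the *Hbb-bt* share of beta globin UMIs (percent) and the level of 7 genes (CPM of all UMIs, exact 95% counting intervals) by the number of genes in barcodes with 50% or more haemoglobin, for both libraries. The dotted line is the limit of 200 genes. *Ftl1* keeps its level on the left of it, *Ubb* and *Gpx1* are several-fold higher near it, and *Slc4a1* and *Malat1* are high only to its right.

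The proportions of the globin chains, which the rule did not use, also went with the number of genes. The beta genes *Hbb-bs* (chr7:103826534-103828096) and *Hbb-bt* (chr7:103812524-103813996), both on the minus strand of GRCm38, have coding sequences of 441 bases that differ at 1 base. Their last 300 transcript bases differ more, since 36.7% of the 50-base stretches of *Hbb-bs* also occur in *Hbb-bt*. For the alpha genes *Hba-a1* and *Hba-a2*, whose coding sequences of 426 bases differ at 1 base, that share is 80.1%. Counts split between the members of a pair are therefore uncertain, more so for alpha. The stretch of the beta genes that ends at the differing base, coding bases 328 to 417, is shown with that base in capitals.
Hbb-bs: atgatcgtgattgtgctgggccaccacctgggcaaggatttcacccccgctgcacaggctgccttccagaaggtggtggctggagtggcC
Hbb-bt: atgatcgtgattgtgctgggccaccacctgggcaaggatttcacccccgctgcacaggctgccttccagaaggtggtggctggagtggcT

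*Hbb-bt* held 18.1% of the beta globin UMIs in the untreated library (barcode median 18.1%, range 3.15 to 28.4) and 15.5% in the calcitriol library (15.5%, 0.31 to 27.2). Intermediate barcodes were at 20.8% and 17.5%. The share was 15.1% at 50 to under 100 genes, 18.5% at 100 to under 150 and 19.9% at 150 to under 200 in the untreated library, and 10.2%, 17.1% and 17.3% in the calcitriol library. It was thus lower in the calcitriol library in each of these classes, and the difference of -2.55 points over all barcodes was -5.02 points under 100 genes and -1.90 points with 5000 or more UMIs. The ranges over barcodes overlapped widely. Alpha chains held 34.9% and 34.2% of the haemoglobin UMIs, a difference of -0.70 points that turned to 1.76 points under 100 genes and to 0.10 points as a mean over barcodes, so that its direction depends on the choice.

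Calcitriol was then set against untreated within the barcodes under 200 genes. The libraries were similar in most transcripts. Of the 526 genes with at least 50 UMIs over both libraries, 35 (6.65%) were 2-fold or more higher in the calcitriol library and 19 (3.61%) were 2-fold or more lower in CPM beside haemoglobin. The counting interval lay above 0 for 100 genes (19.0%) and below 0 for 119 (22.6%), and the median log2 ratio of all 526 was -0.08. As shares of all UMIs the split was 57 higher and 9 lower, since UMIs beside haemoglobin were a larger part in the calcitriol library. Without the barcodes under 5000 UMIs 29 genes were 2-fold higher and 23 lower beside haemoglobin, and the summed log2 ratio was -0.13 for haem synthesis, 0.23 for ribosomal proteins and -0.52 for the mitochondrial genome.

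The main red cell transcripts differed by less than 2-fold. The log2 ratio of calcitriol to untreated was -0.11 for *Alas2* (95% counting interval -0.15 to -0.07), -0.22 for *Ftl1* (-0.27 to -0.18) and 0.09 for *Ubb* (0.04 to 0.13). No gene among the 25 highest was past 2-fold. Counts of list members can be set beside the 6.65% of all 526 genes that were 2-fold higher and the 3.61% that were 2-fold lower. None of 8 haem synthesis, 6 iron and 9 red cell enzyme genes tested was past 2-fold. The interval lay below 0 for 5 of the 8 haem synthesis genes and 4 of the 6 iron genes, beside 22.6% of all genes, with medians of -0.30 and -0.31 beside -0.08. Of 11 membrane genes 1 was 2-fold higher, of 24 ubiquitin and clearance genes 2 were, and of 18 late erythroid genes 1 was 2-fold lower, which are shares near those of all genes. Summed over the list, haem synthesis genes had a log2 ratio beside haemoglobin of -0.15, iron genes of -0.21 and ubiquitin and clearance genes of -0.10. These directions depend on the scale. As CPM of all UMIs, haem synthesis was at 2821 in the untreated and 2954 in the calcitriol library. Iron genes were at 2763 and 2792, and ubiquitin and clearance genes at 6076 and 6584. *Alas2* was at 1928 and 2079 and *Ftl1* at 1551 and 1547 on that scale. The farthest of the 25 were *Eif1*, which selects the start codon in translation, at 0.63 (0.53 to 0.72) and *H3f3a*, histone H3.3, at -0.61 (-0.71 to -0.51). *Mkrn1* was at -0.49 (-0.54 to -0.44) and had a UMI in 97.3% of the untreated and 85.9% of the calcitriol barcodes.

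Translation and mitochondrial transcripts went in different directions. Of 74 ribosomal protein genes tested, 5 (*Rps21*, *Rpl35*, *Rps20*, *Rps28* and *Rps27*, named after their values were seen) were 2-fold higher, a share near the 6.65% of all genes, and none was 2-fold lower. Their median log2 ratio was 0.33 beside -0.08 over all genes, and the counting interval lay above 0 for 28 and below 0 for 2, beside 19.0% and 22.6% of all genes. The summed level of ribosomal proteins had a log2 ratio of 0.27 in these barcodes, 0.27 in intermediate barcodes and 0.26 in stromal barcodes. Of 11 mitochondrial genes tested none was past 2-fold, 8 had an interval below 0, beside 22.6% of all genes, and none above, and the median was -0.61. The summed mitochondrial level had a log2 ratio of -0.50 in these barcodes, -0.20 in intermediate barcodes and -0.05 in stromal barcodes. *Gm42418* was at 0.55 (0.51 to 0.58), at 0.33 when only barcodes with 90% or more haemoglobin were kept and at 0.25 with 5000 or more UMIs.

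The largest ratios belonged to genes of the skeleton. *Cytl1*, a secreted protein of cartilage, had 36 UMIs in the 1239 untreated barcodes and 67 in the 410 calcitriol barcodes, a log2 ratio of 2.60 (1.99 to 3.22). *Prg4*, the lubricin of the joint surface, had 89 and 142, a ratio of 2.38 (1.98 to 2.77). *Mgp*, matrix Gla protein, which keeps cartilage from calcifying, had 166 and 215, a ratio of 2.07 (1.78 to 2.38), and *Spp1*, osteopontin of the bone matrix, had 161 and 171, a ratio of 1.79 (1.47 to 2.11). These 4 are products of cartilage, joint and bone cells. *Mt1*, a metallothionein, was at 2.13, *Gsn*, gelsolin, at 1.85, *Gng5*, a G protein subunit, at 1.78 (but at -0.22 under 100 genes), *Cst3*, cystatin C, at 1.67 and *Ccn2*, connective tissue growth factor, at 1.45.

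Most skeletal markers differed in the same direction as in the rest of their library. The 71 markers of bone, cartilage, fibroblasts, endothelium and smooth muscle had 2153 UMIs in the untreated barcodes, 1.74 per barcode, and 1490 in the calcitriol barcodes, 3.63 per barcode. Of 5 bone genes tested 2 were 2-fold higher, of 5 cartilage genes 3 and of 7 fibroblast and tendon genes 5, with none 2-fold lower, beside 6.65% higher and 3.61% lower of all genes, and medians of 0.89, 2.17 and 1.29. *Malat1*, which is not a skeletal marker, moved the same way, with 306 and 194 UMIs and a log2 ratio of 1.04 (0.78 to 1.31). It was found in nearly every stromal barcode, but also in every red cell barcode with 1000 or more genes. In intermediate red cell barcodes it went the other way, at 48867 CPM beside haemoglobin in the untreated and 38574 in the calcitriol library. In all, the markers were at 4960 and 11164 CPM beside haemoglobin, or 0.496% and 1.12% of these UMIs, and their part in the differences between the libraries was not tested. *Sparc*, osteonectin, was the most abundant of them in the untreated library with 331 UMIs and *Mgp* in the calcitriol library with 215, and 11 and 21 of the 71 were at 0. Endothelial markers had 24 and 11 UMIs and smooth muscle markers 10 and 1, too few for this comparison. A UMI of any marker was found in 78.9% and 96.3% of the barcodes. The same markers took 6.28% and 13.0% of all UMIs of the libraries. Of 29 markers with at least 20 UMIs, 28 had a ratio of calcitriol to untreated with the same sign in these barcodes as in the rest of the library. The ratio was per barcode in these barcodes, and of total UMIs, not scaled for barcodes or depth, in the rest. In the rest *Col3a1* (log2 -0.01) and *Serpinf1* (-0.03) lay near 0, so the count of 28 depends on these units. The ratios had a Pearson r of 0.87 across these 29 genes, which are not independent and share both libraries. For comparison, *Col1a1*, type I collagen, had 191 UMIs in the untreated barcodes and *Ftl1* had 17817, while untreated stromal barcodes held them at 13944 and 1893 CPM of all UMIs. The source of the UMIs of either gene in these barcodes was not tested.

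**Figure D5:**
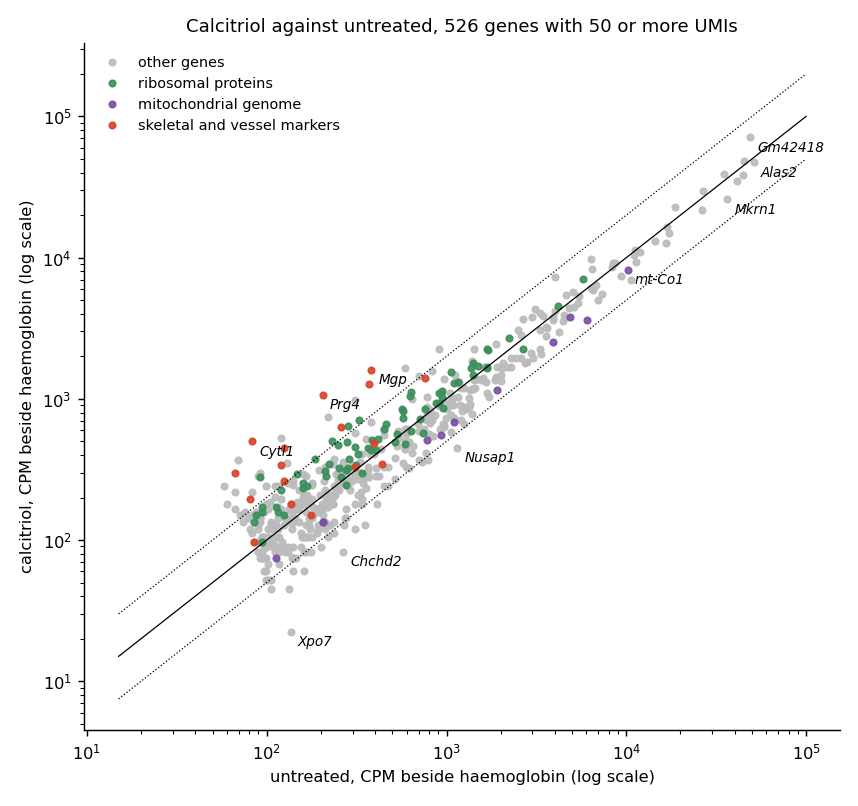
Each point is a gene with at least 50 UMIs, placed by its CPM beside haemoglobin in the untreated (horizontal, log scale) and the calcitriol library (vertical, log scale), in barcodes under 200 genes. The full line is equality and the dotted lines are 2-fold. The high genes such as *Alas2* lie near equality, and several skeletal markers, *Prg4* among them (205 and 1064 CPM), lie above the upper dotted line.

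The smallest ratios were spread over several functions. *Chchd2*, a mitochondrial protein, had 115 and 11 UMIs, a log2 ratio of -1.68 (-2.73 to -0.79). *Nusap1*, which binds the spindle in mitosis, had 496 and 60, a ratio of -1.35 (-1.76 to -0.96). *Lmo2*, a partner of the erythroid transcription factors, had 343 and 49, a ratio of -1.11 (-1.57 to -0.67). *Ube2s*, which extends ubiquitin chains on targets of the anaphase-promoting complex, had 316 and 48, a ratio of -1.02 (-1.49 to -0.58). *Dnajb2*, *Suds3*, *Jpt1*, *Ubl5*, *Sdcbp* and *Ncoa7* lay between -1.46 and -1.06. *Xpo7*, with 59 and 3 UMIs, was too low for this ranking and stood at -2.60 (-4.91 to -0.98). For *Nusap1* the ratio was 0.19 under 100 genes and for *Ube2s* 0.34 with barcodes thinned to 500 UMIs.

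Transcripts of the other blood cells were close to absent. Platelet markers had 7 UMIs in the untreated and 4 in the calcitriol barcodes, neutrophil markers 8 and 1, B cell markers 5 and 1, and markers of T and NK cells and of mast cells and basophils 0 and 0. With 3 counts as the limit that a count of 0 allows, 0 of 1239 barcodes leaves room for up to 0.242% of barcodes with a UMI and 0 of 410 for up to 0.732%, which is no limit on cells that express a gene. Macrophage and osteoclast markers had 33 and 21 UMIs, led by *Lgals3* with 23 and 13. *Vdr*, the vitamin D receptor, and *Fgf23* had no UMI in the barcodes under 200 genes of either library. The 14 vitamin D genes listed had 1 and 3 UMIs there in all, every one from *Enpp1*. Interferon-response genes held 0.872% and 0.947% of the UMIs beside haemoglobin, led by *Rsad2*, viperin, with 2206 and 756 UMIs, and *Isg15*, a ubiquitin-like protein, with 1123 and 375 UMIs, of which a single untreated barcode held 113.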

How the data were processed

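The authors deposited, for each of the 2 libraries, the filtered count matrix of Cell Ranger 4.0.0 (10x 3′ chemistry, reads mapped to mm10, authors' downstream work in Seurat 3.2.2), which holds the count of UMIs per gene and barcode for 32285 genes, without normalization. The libraries held 70266983 (untreated) and 60392557 (calcitriol) UMIs in all. Barcodes were taken by the rule given above. No doublet caller was run, and free RNA was not removed.

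UMIs were summed over barcodes. Intervals are exact at the 95% level (Clopper-Pearson, Poisson, or conditional binomial for ratios). Genes were compared from 50 UMIs and ranked between libraries from 100. The genes named were the 25 highest, the 10 at each end of both rankings, and members of the lists, of which some are not reported here. Members and lists were chosen with earlier results of these data known. Where identifiers shared a symbol, they were kept apart. Coordinates, transcript lengths and sequences are from GENCODE vM21 (GRCm38), which may not be the authors' release. The interval code was tested on simulated data. Python 3.11.15, numpy 2.4.6, scipy 1.17.1, pandas 2.3.3 and matplotlib 3.10.9 were used. The alternatives are those named in the closing section.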

Additional observations from a re-analysis of the deposited data

How the results depend on the processing

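No paired analysis was possible because each group is 1 library. The limits on UMIs, on 100 or more genes and the comparison with 400 or more genes were chosen after seeing the data. Keeping fewer than 100 genes left 6.35% of the untreated and 3.27% of the calcitriol barcodes, with 12 genes 2-fold higher with calcitriol, a difference of 1.76 points in alpha share and -5.02 in *Hbb-bt* share, skeletal markers at 8714 and 23226 CPM beside haemoglobin, and ratios of 0.19 for *Nusap1* and -0.22 for *Gng5*. With 5000 or more UMIs the differences were -1.06 and -1.90 points and the calcitriol skeletal level was 10223, and with 100 or more genes they were -1.51 and -1.97 points. As means over barcodes they were 0.10 and -3.73. With the total of all UMIs 57 genes were higher and 9 lower with calcitriol, with the mean of the barcodes' own levels 34 were lower, from 200 UMIs 9 and 4, from 10 UMIs 244 and 131, and thinned to 500 UMIs 0 and 1, with *Ube2s* at 0.34. Thinning, the limit of 200 UMIs and the limit of fewer than 100 genes left fewer genes to test, and the limit of 10 UMIs left more. Those counts are therefore not comparable with the counts among 526 genes, and otherwise the cause was not tested. Against intermediate barcodes, all UMIs gave 0 higher and 841 lower, and a haemoglobin limit of 80% gave 48 and 176. Against those with 400 or more genes, all UMIs gave 0 and 801. Of 639 values of single genes and lists under these settings, 509 stayed within the counting interval of the main value and 127 moved outside it. Another 3 changed sign from a main ratio of 2-fold or more. Changes of sign from smaller ratios were not counted apart and are among the 509 and 127. Single genes were recomputed under a setting only where each library held more than 3 UMIs of them. Depth limits the low genes most, since the calcitriol barcodes held 133465 UMIs beside haemoglobin.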

Other observations

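A list of immediate early and heat shock genes that respond to tissue dissociation had a summed log2 ratio of calcitriol to untreated of 0.72 (95% counting interval 0.56 to 0.87) in the red cell barcodes under 200 genes, 0.53 in intermediate red cell barcodes and 0.31 in stromal barcodes. *Jund*, an AP-1 subunit and the most abundant of them, had 814 and 324 UMIs, and *Fos*, another AP-1 subunit, had 40 and 40. A list of genes that respond to glucocorticoids had a summed ratio of 2.0 (1.68 to 2.32), 2.30 in intermediate barcodes and 1.00 in stromal barcodes, led by *Mt1* with 52 and 70 UMIs. Cell division genes had a summed ratio of -0.69 (-0.87 to -0.51), -0.67 and -0.23 in the same order, and nearly all of it was *Ube2c*, the conjugating enzyme of the anaphase-promoting complex, with 1462 and 277 UMIs. Skeletal markers also differed between the libraries (0.496% and 1.12% of the UMIs beside haemoglobin), and their part in these values was not tested.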
